A study of Mus musculus with 9 samples.

Results

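The 10 genes described here encode both partners of the NUP98-NSD1 fusion and chromatin proteins that work beside them: Nup98, Nsd1, Nsd2, Nsd3, Setd2, Ash1l, Kmt2a, Men1, Psip1 and Dot1l. They were taken by gene symbol from the gene tables of 9 RNA-seq libraries, and all 10 were found once among 55274 gene identifiers. The libraries came from cultures of mouse bone marrow cells in 3 groups of 3: cells transduced with NRASG12D, with NUP98-NSD1, or with NUP98-NSD1+NRASG12D. All groups started from female C57BL/6J mice that had received 5-fluorouracil at 150 mg/kg, with marrow taken 4 days later. The marrow cells were stimulated for 48 h with interleukin-6, interleukin-3 and stem cell factor, transduced with MSCV retroviruses, sorted on the fluorescent marker of the vector and expanded. NUP98-NSD1 was carried with GFP and NRASG12D with BFP, from a strong constitutive viral promoter. Cells with an empty vector and untransduced cells form no group, so every comparison below is between oncogenes. The species of the NUP98-NSD1 sequence in the vector is not given in the sources used here, and the number of animals or cultures behind the 3 libraries of a group is not given either, so p-values measure only the spread between these libraries, which may be technical.

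Nup98 is a protein of the nuclear pore, whose flexible repeats let cargo pass and which also visits active genes in the nucleoplasm. Nsd1, Nsd2 and Nsd3 are a family of histone methyltransferases that place mono- and dimethyl marks on lysine 36 of histone H3, Setd2 adds the trimethyl mark in the wake of RNA polymerase II, and Ash1l also acts on this lysine. Kmt2a methylates lysine 4 of histone H3 and works with its cofactors menin (the product of Men1) and LEDGF (from Psip1), the latter a reader of methylated lysine 36. Dot1l methylates lysine 79 of histone H3 on transcribed genes. In blood cells some of these proteins are known for keeping Hoxa genes active, and the human genes of several members are partners of leukemia fusions.

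The values are FPKM, fragment counts divided by transcript length and library size, which makes levels of genes of different length comparable. From the spacing of low values, the libraries held an estimated 22600000 to 35600000 fragments. With the longest transcript taken as gene length, the member with the fewest reads, Kmt2a, had an estimated 182 fragments or more in every library. Expression of shorter transcripts would make this number smaller. Nras, the gene delivered by one of the vectors, had 348 to 479 FPKM with NRASG12D alone, 245 to 701 with both oncogenes and 47.7 to 51.2 where only NUP98-NSD1 was delivered, as the labels give it. The groups differed in cell type markers as well as in oncogene. The summed level of 9 mast cell markers, among them Cpa3 and Fcer1a, was 29916 to 32623 FPKM with NRASG12D alone and 26417 to 31365 with NUP98-NSD1 alone, against 732 to 4301 with both (Cpa3 itself was listed at 0 in every NRASG12D library). Without Cpa3 the sum of the other 8 was 13257 to 16987 FPKM with NUP98-NSD1 alone and 452 to 2480 with both, below the 29916 to 32623 with NRASG12D. In NUP98-NSD1 against NRASG12D cells 2 of the 9 mast cell markers were called higher and 4 lower by limma. The sum of 10 neutrophil lineage markers, among them Mpo and Elane, was 26.6 to 34.7, 1741 to 6205 and 8955 to 19582 FPKM in the same order (Ltf and Camp were listed at 0 in every NRASG12D library), and that of 8 monocyte and macrophage markers, among them Csf1r and Ly6c2, was 41.4 to 54.8, 444 to 847 and 1684 to 4586 FPKM. Stem and progenitor markers (4 genes, Cd34 and Flt3 first) summed to 362 to 400, 449 to 554 and 18.6 to 136 FPKM. T cell markers (3 genes, Cd3e, Cd3g and Lck) summed to at most 5.46 FPKM, in NUP98-NSD1+NRASG12D replicate 1, where Lck alone had 5.30. Against NRASG12D, limma called Lck higher in NUP98-NSD1 (1.21, adjusted p = 0.0038) and in NUP98-NSD1+NRASG12D cells (1.53, adjusted p = 0.031). The part of all these cell type markers in the differences below was not tested. In bulk RNA, fewer cells of a type and less RNA per cell cannot be told apart.

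Levels of the 10 genes spanned a wide range, and Men1 and Kmt2a stood at its ends in every group. Men1 had 26.5 ± 1.15 FPKM (SD, n = 3) in NRASG12D, 37.1 ± 6.92 in NUP98-NSD1 and 39.1 ± 8.57 in NUP98-NSD1+NRASG12D libraries. Kmt2a, whose product menin binds, had 0.881 ± 0.0424, 0.585 ± 0.0613 and 0.657 ± 0.169 FPKM. The mean of Men1 was thus 30.02 times that of Kmt2a in NRASG12D, 63.4 times in NUP98-NSD1 and 59.6 times in NUP98-NSD1+NRASG12D libraries. In NRASG12D libraries Nsd3, Nsd1, Nup98, Psip1, Dot1l, Setd2, Nsd2 and Ash1l followed Men1 in this order, and the library ranges of Nup98 and Psip1, of Psip1 and Dot1l and of Setd2 and Nsd2 overlapped. In NUP98-NSD1 libraries Nup98 had moved up to the third place, where its range overlapped that of Nsd3, and Nsd2 to the sixth, where it overlapped both neighbours, Psip1 and Dot1l. In NUP98-NSD1+NRASG12D libraries the ranges of Nup98, Nsd3 and Nsd1 overlapped from neighbour to neighbour, as did those of Nsd2, Dot1l, Psip1 and Setd2. Ash1l was the ninth and Kmt2a the tenth in all 3 groups, each apart from its neighbours.

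**Figure D1:**
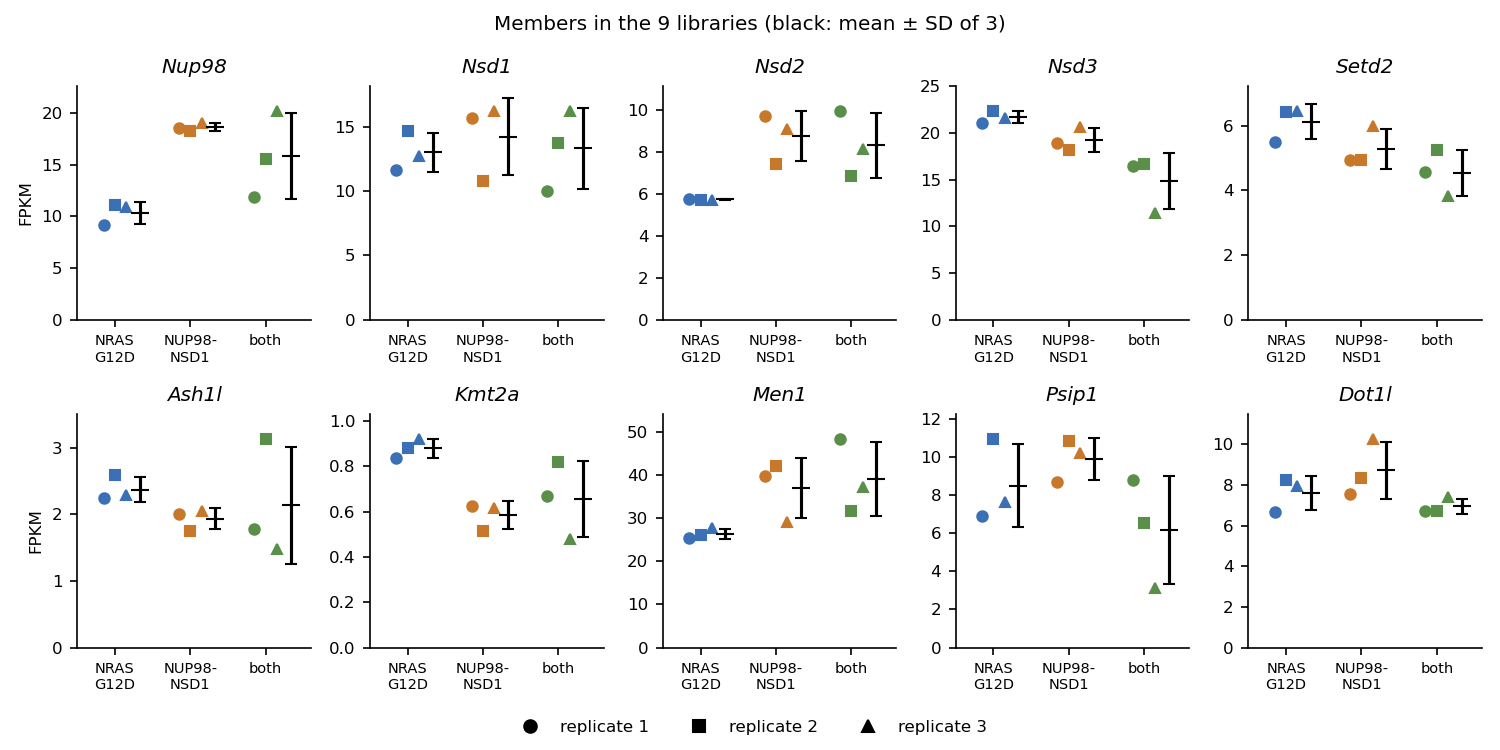
FPKM of the 10 genes (vertical axes, from 0) by group, where both stands for NUP98-NSD1+NRASG12D; symbols mark replicates, and black bars give the mean and SD of 3. Nup98, Nsd2 and Men1 lay above their NRASG12D levels in all 6 libraries with the fusion, and Nsd3 and Kmt2a lay below them. The share of all tested genes set apart in this way is not given here, so these separations have no background beside them.

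The promoters of Nup98 and Men1 are shown because these are the members called higher in NUP98-NSD1 cells (below) for which the RefSeq promoter table held an entry. Entries were present for 5 of the 10 genes. The 250 bases before the first listed start, on GRCm38.p6, are printed 5′ to 3′ on the strand of the gene, with CCAAT boxes and GC boxes in capitals (minus strand, chr7:102210167-102210416, for Nup98, and plus strand, chr19:6334729-6334978, for Men1).
Nup98: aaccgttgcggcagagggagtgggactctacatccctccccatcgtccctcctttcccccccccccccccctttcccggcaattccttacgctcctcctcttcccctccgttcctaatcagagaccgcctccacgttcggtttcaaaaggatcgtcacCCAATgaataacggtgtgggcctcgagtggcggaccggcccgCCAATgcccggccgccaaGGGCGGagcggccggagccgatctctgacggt
Men1: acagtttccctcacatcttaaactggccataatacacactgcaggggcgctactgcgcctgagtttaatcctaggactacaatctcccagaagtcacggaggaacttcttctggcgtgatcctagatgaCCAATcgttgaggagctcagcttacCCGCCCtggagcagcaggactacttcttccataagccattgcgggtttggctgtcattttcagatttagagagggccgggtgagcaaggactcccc
The letters CCAAT, on either strand, stood 2 times in the Nup98 window and 1 time in that of Men1, and 33.8% of 32536 windows of the same length in the table held them. The GC box letters GGGCGG, again on either strand, were found 1 time in each window and in 33.0% of all windows, where capitals reading CCGCCC are the GC box of the opposite strand. No match of one motif overlapped a match of the other. GC content was 64.4% for Nup98 and 52.0% for Men1, against a median of 52.4% over all windows. No match was found in either window for the TATA box (TATAAA, in 12.3% of all windows), the ETS core (CCGGAAG, 6.95%), the NRF1 core (GCGCATGC, 2.27%), the E2F core (TTCCCGC, 3.84%), the YY1 core (AAGATGG, 4.51%) and the MYC E-box (CACGTG, 6.04%). Both genes had further listed starts, whose windows are not printed. The window of the other Nup98 start held no CCAAT box, 3 GC boxes and 75.2% GC. Those of the further Men1 starts held 1 CCAAT box and 1 GC box each, with 55.6% and 54% GC. All of these are matches of letters and not sites of binding.

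Of the 10 genes, 9 reached 1 FPKM in at least 3 of the 9 libraries and were tested, and Kmt2a did not. Tests were run with limma on log2(FPKM + 1) over the 6 libraries of a comparison, and p-values were adjusted over 13493 genes. In NUP98-NSD1 against NRASG12D libraries, 3 of the 9 genes rose (Nup98, Nsd2 and Men1) and none fell, while 42.2% of all tested genes rose and 9.98% fell. The share of members that rose was therefore not above that of all genes. The median difference of the 9 genes was 0.17, that of all tested genes 0.27. This shift of all genes depends on the scaling of the libraries: after median-ratio scaling, which removes it, 22.7% of genes rose and 23.3% fell, and of the members Nup98 rose while Nsd3, Setd2 and Ash1l fell. The calls over all genes went from 5689 higher and 1347 lower to 3062 higher and 3146 lower.

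In NUP98-NSD1+NRASG12D against NRASG12D libraries limma called none of the 9 genes, against 24.2% of all genes called higher and 14.1% lower. An unadjusted p below 0.05 was found for 4 of them (Nup98, Nsd2, Nsd3 and Men1). The share of all genes at that unadjusted level is not given here, so this count has no background beside it. The median difference was -0.11 over the 9 genes and 0.23 over all genes. With median-ratio scaling 19.8% of genes rose and 19.1% fell, and Nsd3 and Setd2 fell (calls over all genes went from 3266 higher and 1907 lower to 2666 and 2574). A single fit of all 9 libraries, in which the groups share an estimate of the spread, called 4 members instead of 0 (3 higher and 1 lower), with 31.5% of all genes called higher and 16.7% lower in the same fit. Without NUP98-NSD1+NRASG12D replicate 1 the count was 2, beside 41% of all genes called in either direction, and without replicate 2 it was 3, beside 46.9%. These first comparisons share the NRASG12D libraries, so a gene that deviates there deviates in both.

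Between NUP98-NSD1+NRASG12D and NUP98-NSD1 libraries limma called 0 of the 9 genes, and 0 had an unadjusted p below 0.05. Over all tested genes 2.3% were called higher and 6.31% lower, or 2.16% and 4.46% after median-ratio scaling. The median difference was -0.18 over the members and -0.06 over all genes. With limma array weights, which let a library that varies more count for less, Psip1 was called lower, in a setting that called 8.77% of all genes higher and 17.2% lower.

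**Figure D2:**
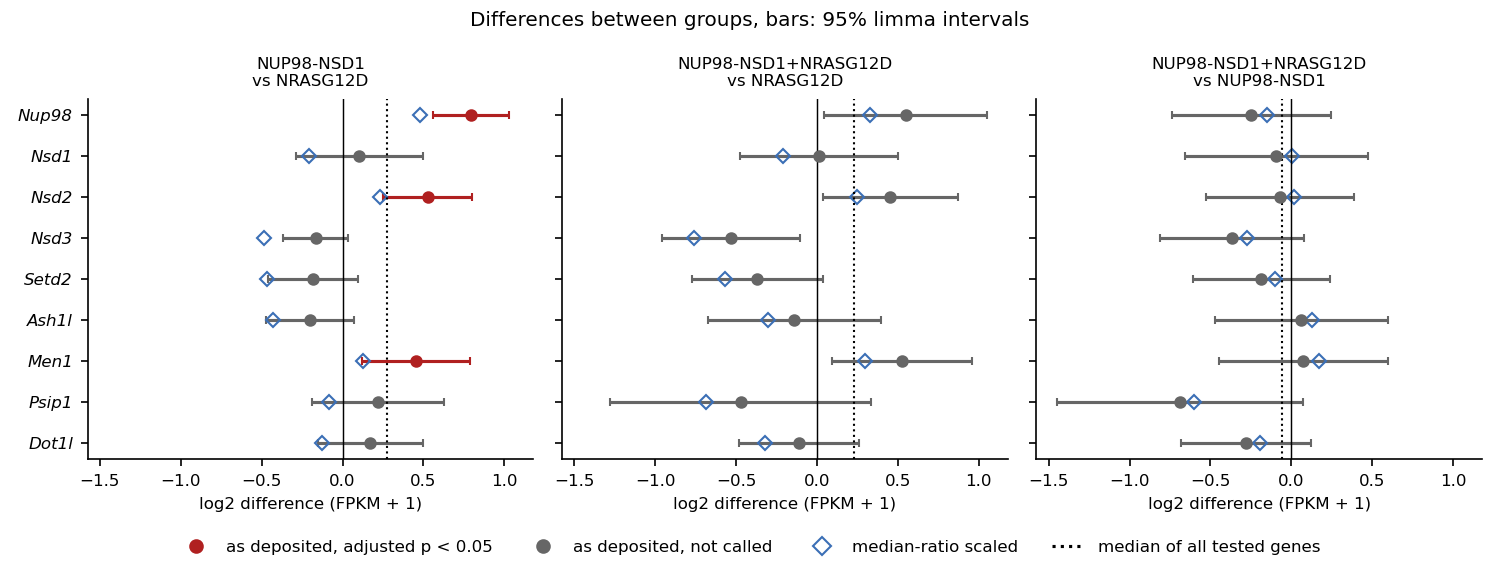
Log2 differences between group means of log2(FPKM + 1) for the 9 tested genes, with 95% limma intervals as bars, in the 3 comparisons; red points have an adjusted p below 0.05, diamonds give the value after median-ratio scaling and the dotted line is the median of all tested genes. Nup98, Nsd2 and Men1 were called in the first comparison, and Nup98 was called with both scalings.

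Nup98 (ENSMUSG00000063550.8, chromosome 7 from 102119398 to 102210176, minus strand, GRCm38) supplies the 5′ part of the fusion. It had 9.12, 11.1 and 10.9 FPKM in the NRASG12D libraries, 18.6, 18.2 and 19.0 in the NUP98-NSD1 libraries, and 11.9, 15.6 and 20.2 in the NUP98-NSD1+NRASG12D libraries, replicates 1 to 3 each. The NUP98-NSD1 libraries were nearly alike and all lay above the NRASG12D libraries, whereas those with both oncogenes ran from just above the NRASG12D range to above the NUP98-NSD1 range. The difference between NUP98-NSD1 and NRASG12D was 0.79 on the log2 scale (standard error 0.10, 95% interval 0.56 to 1.03, limma adjusted p = 0.00141), which is 0.52 above the median of all genes. It was called in all 14 alternatives. With both oncogenes the difference from NRASG12D was 0.55 (standard error 0.21, interval 0.04 to 1.05, adjusted p = 0.0818), and it was called in 3 of 14 alternatives: without NUP98-NSD1+NRASG12D replicate 1 (0.73, adjusted p = 0.0183), in the fit of all 9 libraries (adjusted p = 0.0331) and with array weights (0.78, adjusted p = 0.0109).

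Nsd1 (ENSMUSG00000021488.8, chromosome 13 from 55209782 to 55318325, plus strand) supplies the 3′ part of the fusion with its methyltransferase domain. Its values were 11.7, 14.7 and 12.7 FPKM in NRASG12D, 15.7, 10.8 and 16.2 in NUP98-NSD1 and 9.98, 13.8 and 16.2 in NUP98-NSD1+NRASG12D libraries. The 3 groups overlapped, and the spread within each group of fusion libraries was larger than any difference between group means. Against NRASG12D the differences were 0.10 (interval -0.29 to 0.50, limma adjusted p = 0.623) for NUP98-NSD1 and 0.01 (interval -0.48 to 0.50, adjusted p = 0.969) for NUP98-NSD1+NRASG12D cells. Both turned negative after median-ratio scaling, to -0.21 and -0.21.

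A ratio of genes within a library does not depend on the scaling. The log2 ratio of Nup98 to Nsd1 was -0.36, -0.41 and -0.23 in NRASG12D, 0.24, 0.76 and 0.23 in NUP98-NSD1 and 0.25, 0.18 and 0.32 in NUP98-NSD1+NRASG12D libraries. Nsd1 exceeded Nup98 in every NRASG12D library, and the order was the reverse in all 6 libraries with the fusion. The ratio was 1.67 times that of NRASG12D in NUP98-NSD1 and 1.49 times in NUP98-NSD1+NRASG12D libraries, with p = 0.1 each by two-sided exact permutation, the smallest value that 3 libraries against 3 can give. Between the groups with the fusion it differed by -0.16 on the log2 scale (exact permutation p = 0.7). Reads of the vector and of the endogenous gene cannot be told apart in such values.

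Other proteins of the nuclear pore were read beside Nup98. Of 28 other nucleoporins tested, 21 rose and none fell in NUP98-NSD1 against NRASG12D cells, where 42.2% of all genes rose and 9.98% fell, with a median difference of 0.53 against 0.27 for all genes. After median-ratio scaling 11 rose and 1 fell, beside 22.7% and 23.3% of all genes. The largest rise was that of Nup210, a membrane-spanning nucleoporin, from 4.83 ± 0.688 to 28.8 ± 5.34 FPKM (SD, n = 3). Its difference was 2.34 (limma adjusted p = 0.000184). Nup98 ranked the eighth of the 29 genes by difference in this comparison. Against NRASG12D, NUP98-NSD1+NRASG12D cells had 11 nucleoporins higher and 1 lower, beside 24.2% and 14.1% of all genes (9 and 1 after median-ratio scaling, beside 19.8% and 19.1%), with a median of 0.41 against 0.23 for all genes. Nup210 again rose most, to 30.2 ± 13.1 FPKM, while Nup153, of the nuclear basket, fell by 0.84 on the log2 scale from 13.7 ± 0.0663 to 7.53 ± 2.65 FPKM (adjusted p = 0.0412). When cells with both oncogenes were set against NUP98-NSD1 cells, limma called none of the 28.

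**Figure D3:**
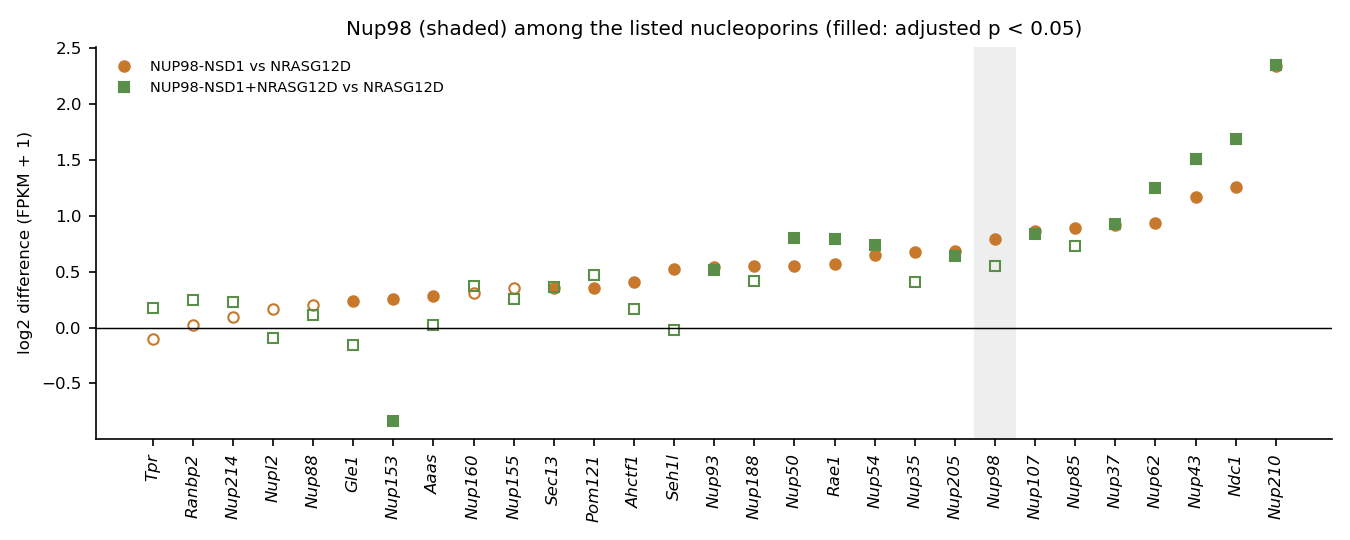
Log2 difference of log2(FPKM + 1) from NRASG12D cells (vertical axis) for Nup98, shaded, and 28 other nucleoporins, ordered by the difference in NUP98-NSD1 cells (circles; squares, NUP98-NSD1+NRASG12D cells; filled, adjusted p below 0.05). In NUP98-NSD1 cells 7 nucleoporins, with Nup210 the highest at 2.34, lay above Nup98.

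The level of Nup98 was therefore also taken relative to the median of these 28 genes in the same library. The log2 value was -1.14, -0.80 and -0.67 in NRASG12D, -0.71, -0.86 and -0.59 in NUP98-NSD1 and -1.81, -0.59 and -0.48 in NUP98-NSD1+NRASG12D libraries. On this measure the groups overlapped. NUP98-NSD1 was 0.15 above NRASG12D (exact permutation p = 0.5) and NUP98-NSD1+NRASG12D was 0.09 lower (difference -0.09, exact permutation p = 1). The sign of the latter turned when either of 2 libraries was left out. NUP98-NSD1+NRASG12D replicate 1 had the highest nucleoporin median of all libraries, 41.9 FPKM, beside the lowest Nup98 level of the fusion libraries, and without it the difference was 0.33. Without NRASG12D replicate 3 it was 0.0074. The comparison of NUP98-NSD1+NRASG12D with NUP98-NSD1 changed from -0.24 (exact permutation p = 0.9) to 0.19 without the same library.

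**Figure D4:**
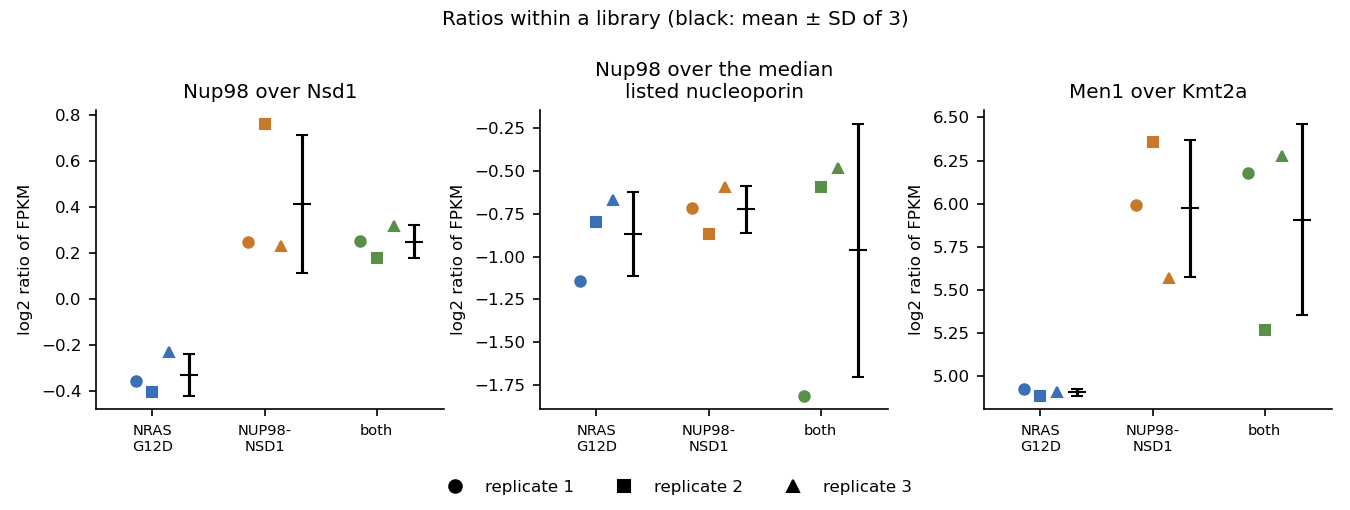
Log2 ratios of FPKM within each library for Nup98 over Nsd1, Nup98 over the median listed nucleoporin and Men1 over Kmt2a, by group (both, NUP98-NSD1+NRASG12D), with symbols for replicates and black bars for mean and SD of 3; the vertical axes do not start at 0. Nup98 over Nsd1 and Men1 over Kmt2a were higher in all 6 fusion libraries than in any NRASG12D library, and Nup98 over the median nucleoporin overlapped between groups.

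Nsd2 (ENSMUSG00000057406.16, chromosome 5 from 33820725 to 33897975, plus strand), another lysine 36 methyltransferase of the family, was at 5.76, 5.72 and 5.70 FPKM in NRASG12D, at 9.73, 7.43 and 9.07 in NUP98-NSD1 and at 9.94, 6.83 and 8.14 in NUP98-NSD1+NRASG12D libraries. All 6 fusion libraries lay above the narrow NRASG12D range, and the fusion groups overlapped each other. It rose in NUP98-NSD1 against NRASG12D cells by 0.53 (standard error 0.12, interval 0.25 to 0.80, limma adjusted p = 0.00925), which is 0.25 above the median of all genes. The call was held in 12 of 14 alternatives and was lost after median-ratio scaling (0.23, adjusted p = 0.172) and quantile normalization (0.20, adjusted p = 0.226). With both oncogenes the difference from NRASG12D was 0.45 (interval 0.04 to 0.87, adjusted p = 0.079). It was called in 3 of 14 alternatives, without NUP98-NSD1+NRASG12D replicate 2 (0.57, adjusted p = 0.0307), in the fit of all 9 libraries (adjusted p = 0.0416) and with array weights (0.42, adjusted p = 0.0359).

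Nsd3 (ENSMUSG00000054823.16, chromosome 8 from 25601601 to 25719667, plus strand), which is also known for a short form without the catalytic domain, had the highest level of the family in NRASG12D cells. NRASG12D libraries had 21.1, 22.4 and 21.6 FPKM, NUP98-NSD1 libraries 18.9, 18.2 and 20.7, and those with both oncogenes 16.5, 16.7 and 11.5. No 2 groups overlapped, and the levels stepped down from NRASG12D over NUP98-NSD1 to NUP98-NSD1+NRASG12D. On FPKM as deposited no step was called. The differences were -0.17 for NUP98-NSD1 against NRASG12D (interval -0.37 to 0.03, limma adjusted p = 0.138), -0.53 for NUP98-NSD1+NRASG12D against NRASG12D (interval -0.96 to -0.11, adjusted p = 0.0534) and -0.37 between the fusion groups (interval -0.81 to 0.08, adjusted p = 0.294). After median-ratio scaling Nsd3 fell against NRASG12D in NUP98-NSD1 (-0.49, adjusted p = 0.00864) and in NUP98-NSD1+NRASG12D cells (-0.76, adjusted p = 0.0135). Quantile normalization gave the same calls. On FPKM as deposited it was also called lower in NUP98-NSD1 cells without their replicate 3 (-0.21, adjusted p = 0.0441) and with array weights (-0.21, adjusted p = 0.0245). In NUP98-NSD1+NRASG12D cells it was called lower without their replicate 1 (-0.61, adjusted p = 0.0373) or 2 (-0.62, adjusted p = 0.0387), in the fit of all 9 libraries (adjusted p = 0.0192) and with array weights (-0.71, adjusted p = 0.00673).

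The makeup of the family was compared within libraries, as the share of each gene in the summed FPKM of Nsd1, Nsd2 and Nsd3 (a measure chosen after their values were seen). Nsd2 held 13.4% to 15.0% of the sum with NRASG12D alone, 19.7% to 21.96% with NUP98-NSD1 alone and 18.3% to 27.3% with both. The share of Nsd3 was 52.3% to 54.7%, 42.6% to 50.0% and 32.0% to 45.3%. Both shares in NRASG12D libraries were apart from those of either fusion group. Nsd2 itself lay above and Nsd3 below the NRASG12D range in every fusion library, so this separation largely restates those values. A permutation p-value for it adds little and is not given. The shares also have a common sum and common NRASG12D libraries, so they are not independent of each other. Nsd1 held 30.3% to 34.3%, 29.6% to 35.4% and 27.4% to 45.2%, and its groups overlapped. The sum itself stayed within 35.8 to 46.0 FPKM in all 9 libraries.

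**Figure D5:**
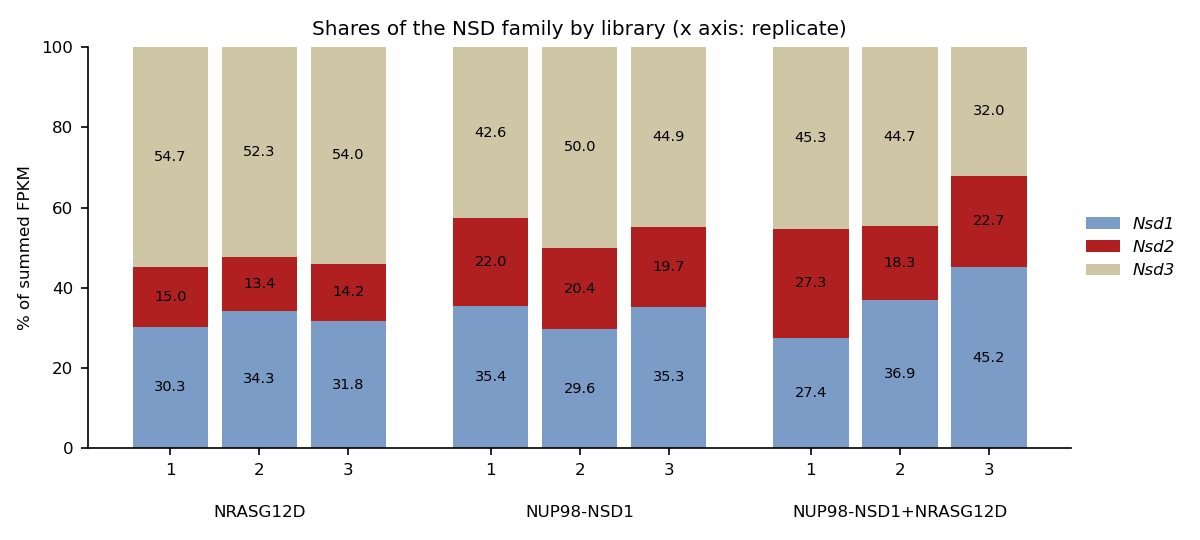
Share of Nsd1, Nsd2 and Nsd3 in their summed FPKM (vertical axis, percent) for each of the 9 libraries, by group and replicate. Nsd2 took 13.4% to 15.0% in NRASG12D libraries and at least 18.3% in every library with the fusion, and Nsd3 took over 52% in NRASG12D libraries and at most 50.0% in the others.

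Setd2 (ENSMUSG00000044791.16, chromosome 9 from 110532597 to 110618633, plus strand) had 5.51, 6.42 and 6.45 FPKM in NRASG12D, 4.93, 4.93 and 5.98 in NUP98-NSD1 and 4.56, 5.25 and 3.81 in NUP98-NSD1+NRASG12D libraries. NUP98-NSD1 overlapped both other groups, and all NUP98-NSD1+NRASG12D libraries lay below those with NRASG12D alone. The difference from NRASG12D was -0.18 (interval -0.46 to 0.10, limma adjusted p = 0.227) in NUP98-NSD1 and -0.37 (interval -0.78 to 0.04, adjusted p = 0.128) in NUP98-NSD1+NRASG12D cells. After median-ratio scaling both were called, at -0.47 (adjusted p = 0.0283) and -0.57 (adjusted p = 0.0451).

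Ash1l (ENSMUSG00000028053.13, chromosome 3 from 88950622 to 89079375, plus strand) was low, with 2.24, 2.59 and 2.28 FPKM in NRASG12D, 2.00, 1.75 and 2.04 in NUP98-NSD1 and 1.79, 3.13 and 1.48 in NUP98-NSD1+NRASG12D libraries. NUP98-NSD1 libraries lay just below the NRASG12D range, and those with both oncogenes held the highest and the lowest value of all. None of its differences was called on FPKM as deposited (-0.20, limma adjusted p = 0.179, -0.14, adjusted p = 0.646, and 0.06, adjusted p = 0.928, in the order of comparisons above). After median-ratio scaling it fell in NUP98-NSD1 against NRASG12D cells (-0.43, adjusted p = 0.0212).

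Kmt2a (ENSMUSG00000002028.13, chromosome 9 from 44803355 to 44881296, minus strand) read 0.837, 0.884 and 0.922 FPKM in NRASG12D, 0.624, 0.514 and 0.616 in NUP98-NSD1 and 0.671, 0.819 and 0.481 in NUP98-NSD1+NRASG12D libraries. Every fusion library was below every NRASG12D library. In a fit with a lower filter and a smaller pseudocount, both 0.1 FPKM and chosen after its values were seen, Kmt2a differed from NRASG12D by -0.52 in NUP98-NSD1 (interval -1.03 to -0.01, limma adjusted p = 0.101) and by -0.40 in NUP98-NSD1+NRASG12D cells (interval -1.15 to 0.35, adjusted p = 0.375). Neither was called.

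Men1 (ENSMUSG00000024947.17, chromosome 19 from 6334979 to 6340891, plus strand) ran opposite to it. Menin, its product, holds Kmt2a at target genes together with LEDGF. Values were 25.5, 26.1 and 27.7 FPKM in NRASG12D, 39.8, 42.2 and 29.2 in NUP98-NSD1 and 48.5, 31.6 and 37.3 in NUP98-NSD1+NRASG12D libraries, so that all fusion libraries lay above the NRASG12D range. It rose in NUP98-NSD1 against NRASG12D cells by 0.46 (standard error 0.14, interval 0.12 to 0.79, limma adjusted p = 0.0306), or 0.18 above the median of all genes. This call was held in 5 of 14 alternatives. It was lost after median-ratio scaling (0.13, adjusted p = 0.381) or quantile normalization, with all genes kept whatever their level, in 1 fit over the 9 libraries, and without any single library other than NUP98-NSD1 replicate 3. With both oncogenes the difference from NRASG12D was 0.53 (interval 0.10 to 0.96, adjusted p = 0.0577), and it was called in 3 of 14 alternatives: without NUP98-NSD1+NRASG12D replicate 2 (0.67, adjusted p = 0.0205), in the fit of all 9 libraries (adjusted p = 0.0427) and with array weights (0.48, adjusted p = 0.0174).

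Within libraries, the log2 ratio of Men1 to Kmt2a (chosen after their values were seen) was 4.93, 4.89 and 4.91 in NRASG12D, 5.99, 6.36 and 5.57 in NUP98-NSD1 and 6.18, 5.27 and 6.28 in NUP98-NSD1+NRASG12D libraries. All 6 fusion libraries exceeded the nearly constant NRASG12D ratio, by 1.07 and 1.00 on average. Men1 lay above and Kmt2a below the NRASG12D range in each of them, so this separation was fixed by those values. A permutation p-value for it adds nothing and is not given. The fusion groups overlapped (difference -0.07, exact permutation p = 0.8). The longest transcripts of Men1 and Kmt2a have 3002 and 16470 bases, and differences between groups moved with length over all genes (below). A ratio within a library does not remove such a trend, and its part here was not tested.

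Psip1 (ENSMUSG00000028484.16, chromosome 4 from 83455680 to 83486459, minus strand) is the LEDGF gene. It had 6.89, 10.96 and 7.65 FPKM in NRASG12D, 8.70, 10.8 and 10.2 in NUP98-NSD1 and 8.80, 6.55 and 3.14 in NUP98-NSD1+NRASG12D libraries. The groups overlapped. The lowest value belonged to NUP98-NSD1+NRASG12D replicate 3, the library that also had the lowest Nsd3, Setd2, Ash1l and Kmt2a and the highest Nup98 and Nras. Psip1 differed by -0.69 between NUP98-NSD1+NRASG12D and NUP98-NSD1 (interval -1.45 to 0.07, limma adjusted p = 0.247), and by 0.22 (adjusted p = 0.318) and -0.47 (adjusted p = 0.2998) from NRASG12D. The first of these was called only with array weights (-1.10, adjusted p = 0.0225) among 14 alternatives.

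Dot1l (ENSMUSG00000061589.14, chromosome 10 from 80755206 to 80795461, plus strand) read 6.66, 8.23 and 7.93 FPKM in NRASG12D, 7.55, 8.34 and 10.3 in NUP98-NSD1 and 6.73, 6.74 and 7.38 in NUP98-NSD1+NRASG12D libraries. The NUP98-NSD1 libraries lay above those with both oncogenes, and either group overlapped NRASG12D. No difference was called (0.17, limma adjusted p = 0.331, -0.11, adjusted p = 0.595, and -0.28, adjusted p = 0.389), with intervals of -0.15 to 0.49, -0.48 to 0.26 and -0.68 to 0.12.

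Other genes of the same pathways were read from lists, and their counts stand beside the shares of all genes: 42.2% higher and 9.98% lower in NUP98-NSD1 against NRASG12D cells (22.7% and 23.3% after median-ratio scaling), 24.2% and 14.1% with both oncogenes against NRASG12D (19.8% and 19.1%), and 2.3% and 6.31% between the fusion groups (2.16% and 4.46%). Among 17 other enzymes, readers and erasers of lysine 36 methylation, 7 rose and 2 fell in NUP98-NSD1 against NRASG12D cells (5 and 7 after median-ratio scaling, median 0.22 against 0.27 for all genes). Dnmt3b, a DNA methyltransferase whose reader domain binds this mark, rose most, from 1.2 ± 0.109 to 4.86 ± 1.27 FPKM (difference 1.39, limma adjusted p = 0.00151). Kdm4b, a demethylase of lysines 9 and 36, fell by 0.50 (adjusted p = 0.00691), from 34.9 ± 4.11 to 24.3 ± 0.442 FPKM. With both oncogenes 1 rose and 4 fell against NRASG12D (1 and 5 after median-ratio scaling, median 0.05 against 0.23). Brpf1, a scaffold of acetyltransferase complexes, rose by 0.78 (adjusted p = 0.00687) to 10.7 ± 0.365 from 5.80 ± 0.545 FPKM, and Kdm4b fell by 1.26 (adjusted p = 0.00461) to 14.3 ± 3.58 FPKM. None of the 17 was called between the fusion groups.

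Of 18 genes of the KMT2 and COMPASS complexes, which methylate lysine 4, 6 rose and 3 fell in NUP98-NSD1 against NRASG12D cells (1 and 6 after median-ratio scaling, median -0.06 against 0.27). Dpy30, a core subunit, rose from 50.5 ± 13.5 to 121 ± 16.5 FPKM (difference 1.28, limma adjusted p = 0.0033), and the methyltransferase Kmt2c fell by 0.49 (adjusted p = 0.0382), from 5.47 ± 1.24 to 3.54 ± 0.275 FPKM. With both oncogenes 1 rose and 5 fell (1 and 5 after median-ratio scaling, median 0.09 against 0.23), led by Dpy30 at 134 ± 58.3 FPKM (difference 1.34, adjusted p = 0.0226) and by Tasp1. Tasp1 encodes the protease that cleaves Kmt2a into its mature parts. It had 17.0, 17.3 and 16.8 FPKM in NRASG12D, 15.5, 17.0 and 16.1 in NUP98-NSD1 and 9.21, 5.45 and 6.89 in NUP98-NSD1+NRASG12D libraries. All libraries with both oncogenes lay below the other 6, and Tasp1 fell against NRASG12D by 1.17 (adjusted p = 0.00429) and against NUP98-NSD1 by 1.10 (adjusted p = 0.0241, with median-ratio scaling 0.0235). Of the 18 genes, 2 fell and none rose in the latter comparison (1 fell after median-ratio scaling).

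Of 20 genes of the DOT1L and elongation complexes 17 were tested. In NUP98-NSD1 against NRASG12D cells 7 rose and 2 fell (3 and 7 after median-ratio scaling, median 0.18 against 0.27), and with both oncogenes 4 rose and 4 fell (3 and 5, median 0.04 against 0.23). Ell2, an elongation factor of RNA polymerase II, rose most in both, from 1.74 ± 0.986 to 13.6 ± 4.28 and to 12.6 ± 4.82 FPKM (differences 2.44, limma adjusted p = 0.00194, and 2.31, adjusted p = 0.00442). Eaf1, an ELL-associated factor, fell in NUP98-NSD1 cells by 0.83 (adjusted p = 0.00519) from 72.5 ± 7.90 to 40.8 ± 8.55 FPKM, and Aff4, a scaffold of the super elongation complex, fell with both oncogenes by 1.61 (adjusted p = 0.00337) from 15.2 ± 2.68 to 4.44 ± 1.496 FPKM. None was called between the fusion groups. Among 12 genes of the KAT6 and KAT7 acetyltransferase complexes, 5 rose and none fell in NUP98-NSD1 against NRASG12D cells (3 and 2 after median-ratio scaling, median 0.14 against 0.27). The largest rise was that of Jade3, by 0.67 (adjusted p = 0.00373). With both oncogenes Jade2 alone was called, lower by 1.14 than in NRASG12D (difference -1.14, adjusted p = 0.00291) and by 0.84 than in NUP98-NSD1 cells (difference -0.84, adjusted p = 0.0316, with median-ratio scaling 0.0726). The Jade genes encode scaffolds of the KAT7 complex.

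Of 5 genes of the HOX program, which some of these proteins are known to keep active, 3 rose (Hoxa7, Hoxa9 and Hoxa10) and 1 fell in NUP98-NSD1 against NRASG12D cells (3 and 2 after median-ratio scaling), and 3 rose and 2 fell with both oncogenes. The median difference was 3.92 and 4.49. Hoxa9 was at 0.0421 ± 0.0526 FPKM (SD, n = 3) in NRASG12D, 47.7 ± 8.94 in NUP98-NSD1 and 56.8 ± 18.4 in NUP98-NSD1+NRASG12D libraries. Pbx3, a cofactor of Hox proteins, fell in NUP98-NSD1 cells by 0.47 (limma adjusted p = 0.0484), and Meis1, another such cofactor, fell in NUP98-NSD1+NRASG12D cells by 2.23 against NRASG12D (adjusted p = 0.000155) and by 2.06 against NUP98-NSD1 (adjusted p = 0.00542). Meis1 is also in the stem and progenitor list, of which 3 of 4 genes (Cd34, Meis1 and Mecom) fell with both oncogenes against NRASG12D. Between the fusion groups Meis1 was the only one of the 5 called.

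The genes most like 4 of the members over the 9 libraries were found by the root mean square difference of log2(FPKM + 1), each gene centred on its own mean. For Nup98 they were Lca5 (0.144), Bbs9 (0.171) and Zdhhc13 (0.171), against a median of 0.450 over all tested genes. Nsd1 was nearest to Ndst1 (0.138), Slc4a2 (0.142) and Mllt11 (0.147), with a median of 0.442. For Nsd2 the nearest were Tdg-ps (0.0884), Utp3 (0.0904) and Gm10045 (0.0961), with a median of 0.354, and for Nsd3 they were Tm9sf1 (0.0607), Zfp280d (0.0697) and Srcap (0.0783), with a median of 0.461. Among the members themselves, Nsd3 and Setd2 were the closest pair (0.115), with Setd2 at rank 53 of all tested genes by likeness to Nsd3. Nup98 and Nsd3 differed by 0.568.

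Sequence shared with other genes could blur some of these values. Of all runs of 50 bases in the transcripts of Psip1, 9.07% were found in another gene too. The share was 2.12% for Ash1l, 1.97% for Kmt2a and 0.899% for Nup98, at most 0.064% for Nsd1, Nsd2 and Nsd3, and 0 for Setd2, Men1 and Dot1l. For Psip1 the largest part, 5.63%, was shared with Snapc3, which overlaps its locus on the opposite strand. Snapc3 had 26.02 to 30.7 FPKM with NRASG12D alone, 20.4 to 25.1 with NUP98-NSD1 alone and 10.0 to 14.4 with both, the group that also held the lowest Psip1 values, and its part in the values of Psip1 was not tested. Ash1l overlaps Dap3 (16.5 to 73.2 FPKM) and Nsd2 overlaps Nelfa (16.9 to 38.8 FPKM), each on the opposite strand. Strand-specific counting is not stated, so reads in the overlaps cannot be told apart. Nelfa was at 16.9 to 18.0 FPKM with NRASG12D alone, 25.5 to 32.2 with NUP98-NSD1 alone and 23.03 to 38.8 with both, so like Nsd2 it was higher in all 6 fusion libraries. It shares 0.064% of the runs of Nsd2, and its part in the values of Nsd2 was not tested. The other genes that overlap a member (Gm47816, Gm23094, Gm23184, Gm24992, Gm45342, Gm45343, Gm42763, Gm24403, Gm26465, Gm39326, Gm48314 and Gm17151) reached at most 2.09 FPKM.

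The members are long genes, with a median longest transcript of 8068 bases against 2797 over the tested genes. Differences between groups moved with transcript length over all genes. In NUP98-NSD1 against NRASG12D cells the median difference was 0.40 for 4731 genes under 2000 bases, 0.27 for 4765 genes from 2000 to under 4000 bases, 0.17 for 3012 genes from 4000 to under 7000 bases and 0.03 for 876 genes of 7000 bases or more. With both oncogenes it was 0.39, 0.20, 0.07 and -0.06 against NRASG12D. Beside the class of its own length, Nup98 (6694 bases) differed by 0.79 against a median of 0.17, Nsd2 (7786 bases) by 0.53 against 0.03 and Men1 (3002 bases) by 0.46 against 0.27. Nsd3, Setd2 and Ash1l, all in the longest class, had -0.17, -0.18 and -0.20 against 0.03. The part of length in these differences, and in the ratios within libraries, was not tested.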

How the data were processed

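RNA was sequenced in 9 libraries as paired-end reads of 50 bp. The authors aligned the reads to GRCm38 with GENCODE M22 (STAR 2.7.2a, per the processing notes) and deposited FPKM per gene from Cufflinks 2.2.1, without a stated scaling between libraries. Strand-specific counting is not given in the sources used here. Lines of the same identifier were summed. Groups were taken from the labels. Depth was estimated from the step between low FPKM values of 3386 single-transcript genes over 2500 bases. Of their nonzero values under 6 fragments, 84.2% to 86.5% per library fell within 0.15 fragments of a whole number. This covers counting error only.

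Genes reaching 1 FPKM in 3 or more libraries were fitted as log2(FPKM + 1) with limma 3.58.1 in R 4.3.3 (variance trend), 6 libraries a comparison, and adjusted by Benjamini-Hochberg with a threshold of 0.05. The log2 differences understate changes of low genes. For ratios an exact permutation test (two-sided) was used. Alternatives were another pseudocount, no or a lower filter, median-ratio scaling, quantile normalization, a fit of all libraries, array weights, a replicate block and leaving out each library. The fit was tested on simulated data. Named are all members, the largest called rise and fall of each list, leading markers, genes of like pattern and genes overlapping a member. Members and lists were chosen with earlier results of these data known. Nup58 and Nup133 were not analysed here. Summed levels of some marker lists are not reported here. Sequences are from RefSeq (GRCm38.p6), and transcript lengths, strands and shared stretches from GENCODE M21. The authors' own comparisons by DESeq2 on counts were not used.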

Additional observations from a re-analysis of the deposited data

How the results depend on the processing

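The count of members called was 3 for NUP98-NSD1 against NRASG12D and 2 to 4 over the alternatives, but the genes differed: Nup98 was called in all 14, Nsd2 was lost under median-ratio scaling and quantile normalization, and Men1 was lost in 9. Nsd3, Setd2 and Ash1l were called lower under these scalings, and Nsd3 also under array weights and without NUP98-NSD1 replicate 3. All-gene calls were 52.1% as reported. Over the alternatives they ran from 11.8% with no filter on low values, where 2 members were called, to 65.2% with array weights, where 4 were. In the fit of all 9 libraries they were 22.7%, with 2 members called. For NUP98-NSD1+NRASG12D against NRASG12D the count was 0, with 38.3% of all genes called, and it was 2 under median-ratio scaling (38.8% of genes), 2 under quantile normalization (38.7%), 4 in the fit of all 9 libraries (48.2%), 4 under array weights (48.9%) and 0 to 3 when a library was left out (2 without NUP98-NSD1+NRASG12D replicate 1, 3 without replicate 2). For NUP98-NSD1+NRASG12D against NUP98-NSD1 it was 0 throughout, with the exception of 1 (Psip1) under array weights. All-gene calls were 8.61% as reported, and over the alternatives they ran from 0.404% with no filter on low values to 25.9% with array weights. Where so few genes were called, a count of 0 members says little. The causes were not tested.

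Some small differences changed sign. In NUP98-NSD1 against NRASG12D, Nsd1 was at -0.21 under median-ratio scaling, -0.21 under quantile normalization and -0.0536 under array weights, Psip1 at -0.0847 and -0.12 and Dot1l at -0.13 and -0.17 under the first pair of settings. With both oncogenes against NRASG12D, Nsd1 was at -0.21 and -0.24 under the same pair and at -0.133 to 0.191 when a library was left out, and Ash1l at -0.358 to 0.0107. Between the fusion groups the values under median-ratio scaling were 0.00149 for Nsd1 and 0.0150 for Nsd2, and those under array weights were 0.23 for Nsd1, -0.0184 for Ash1l and -0.122 for Men1. Leaving out a library gave -0.268 to 0.0867 for Nsd1, -0.195 to 0.0456 for Nsd2, -0.156 to 0.213 for Ash1l, -0.0893 to 0.211 for Men1 and -0.254 to 0.0107 for the log2 ratio of Nup98 to Nsd1. None of these was called.

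Same-numbered libraries were not paired by the sources, and their deviations from group means correlated between -0.177 and 0.160. With a replicate block the counts of members called were 3, 0 and 0, as without it. The log2 ratio of Nup98 to Nsd1 then differed by 0.74, 0.58 and -0.16, with exact sign-flip p = 0.25, 0.25 and 1. The smallest p that the sign-flip test can give with 3 pairs is 0.25. With the longest transcript as length, the estimate was at least 182 fragments for each member, with Kmt2a the lowest. With 3 libraries a group, permutation without pairs cannot go below 0.1.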
